A study of Mus musculus with 6 samples.

Results

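The 10 genes described here belong to the BCL2 family, which controls the mitochondrial pathway of apoptosis. They are *Bcl2*, *Bcl2l1*, *Mcl1*, *Bax*, *Bak1*, *Bbc3*, *Pmaip1*, *Bcl2l11*, *Bid* and *Bad*, picked by gene symbol from the 54532 genes counted, and each symbol matched 1 gene. Lungs of 3 GRdim/dim and 3 GR+/+ mice were compared by bulk RNA-sequencing of poly(A)-captured RNA. GRdim/dim mice carry, in the gene of the glucocorticoid receptor (GR), a point mutation that impairs dimerization of the receptor in every cell, and GR+/+ mice were their littermates on the same 129/SvEv x C57BL/6 background. All mice, between 10 and 16 weeks of age, had undergone hemorrhagic shock (HS), with arterial pressure held at 35 mmHg during 1 h, then retransfusion of the shed blood and resuscitation over 4 h under ventilation with fluids and norepinephrine in a mouse intensive care unit (MICU). The GR+/+ mice were 2 females and 1 male, and the GRdim/dim mice 1 female and 2 males. By counts of *Xist* and of Y-linked genes, the males were GR+/+ replicate 1 and GRdim/dim replicates 1 and 3. Lungs without HS were not analysed here, so the values compare genotypes after HS and do not show a response to HS.

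In healthy cells, anti-apoptotic members such as BCL2, BCL-XL and MCL1 hold the effector proteins BAX and BAK in check. BH3-only proteins, which sense lost growth signals, DNA damage or death receptor signals, bind the anti-apoptotic members or act on the effectors. Once free, BAX and BAK form pores in the outer mitochondrial membrane, and cytochrome c passes into the cytosol, where caspases are activated. Much of this control acts on the proteins through cleavage, phosphorylation and turnover, which RNA counts do not show. Glucocorticoids are known to raise *Bcl2l11* and *Bbc3* in lymphocytes on their way to apoptosis.

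The 6 libraries held between 15687734 and 32082940 counts, and 16568 genes with enough reads were tested for a difference between genotypes, all 10 members among them. Differentially expressed genes (DEGs) were those that edgeR's quasi-likelihood test called at 0.05 after Benjamini-Hochberg (BH) adjustment and whose log2 fold change was also over 0.5 in size. Levels are given as counts scaled to 1000000 per library with TMM factors (CPM). *Nr3c1*, the gene of GR, was at 138 to 162 CPM in GR+/+ and 120 to 159 CPM in GRdim/dim lungs, and counts per gene do not show the point mutation itself. Markers of alveolar type 2 cells, the surfactant-producing cells of the lung, summed to between 15106 and 23572 CPM in every library, and none of the markers of 14 cell types was at 0 in all libraries. Markers of B cells summed to 57.8 to 136 CPM in GR+/+ and 151 to 465 CPM in GRdim/dim lungs, those of T cells to 20.9 to 39.0 and 42.0 to 56.0 CPM, and those of NK cells to 5.86 to 15.5 and 17.9 to 29.7 CPM. Alveolar macrophage markers summed to 387 to 404 CPM in GR+/+ and 237 to 280 CPM in GRdim/dim lungs. Of these 6 markers, *Chil3* went from a mean of 253 to 138 CPM and carried most of the difference, while *Mrc1* had a log2 fold change of -0.032 and *Siglecf* one of 0.32. For these 4 of the 14 marker lists there was no overlap between genotypes. The sums of neutrophil markers overlapped, at 240 to 466 CPM in GR+/+ and 341 to 1081 CPM in GRdim/dim lungs. GRdim/dim replicate 1 had the highest of these sums. In bulk lung, fewer cells of a type and less RNA per cell cannot be told apart.

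None of the 10 members was a DEG between GRdim/dim and GR+/+ lungs in edgeR's test, in which 28 genes or 0.169% of all genes tested were called, 0.0724% as higher and 0.0966% as lower in GRdim/dim lungs. Without adjustment, 0 of the 10 had a *p*-value under 0.05 in this edgeR fit, against 9.6% of all genes (4.91% higher and 4.68% lower). The smallest adjusted *p*-value was 0.558 (*Pmaip1*). DESeq2 also called none, against 1.7% of the genes it tested, and gave 1 member (*Pmaip1*) an unadjusted *p*-value under 0.05, against 10.1% of genes. The libraries of the genotypes overlapped for every member, whereas they did not for 14.8% of all genes (7.77% higher and 7.05% lower). The members' log2 fold changes ran from -0.56 (*Pmaip1*) to 0.35 (*Bid*), with 4 above and 6 below 0 (8439 and 8129 of all genes tested). Their median was -0.081, beside 0.0064 for all genes tested, and their median size without sign was 0.19, beside 0.21. The 95% confidence intervals of the 10 fold changes all included 1 and lay between 0.450 and 1.84 in GRdim/dim over GR+/+ lungs.

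**Figure D1:**
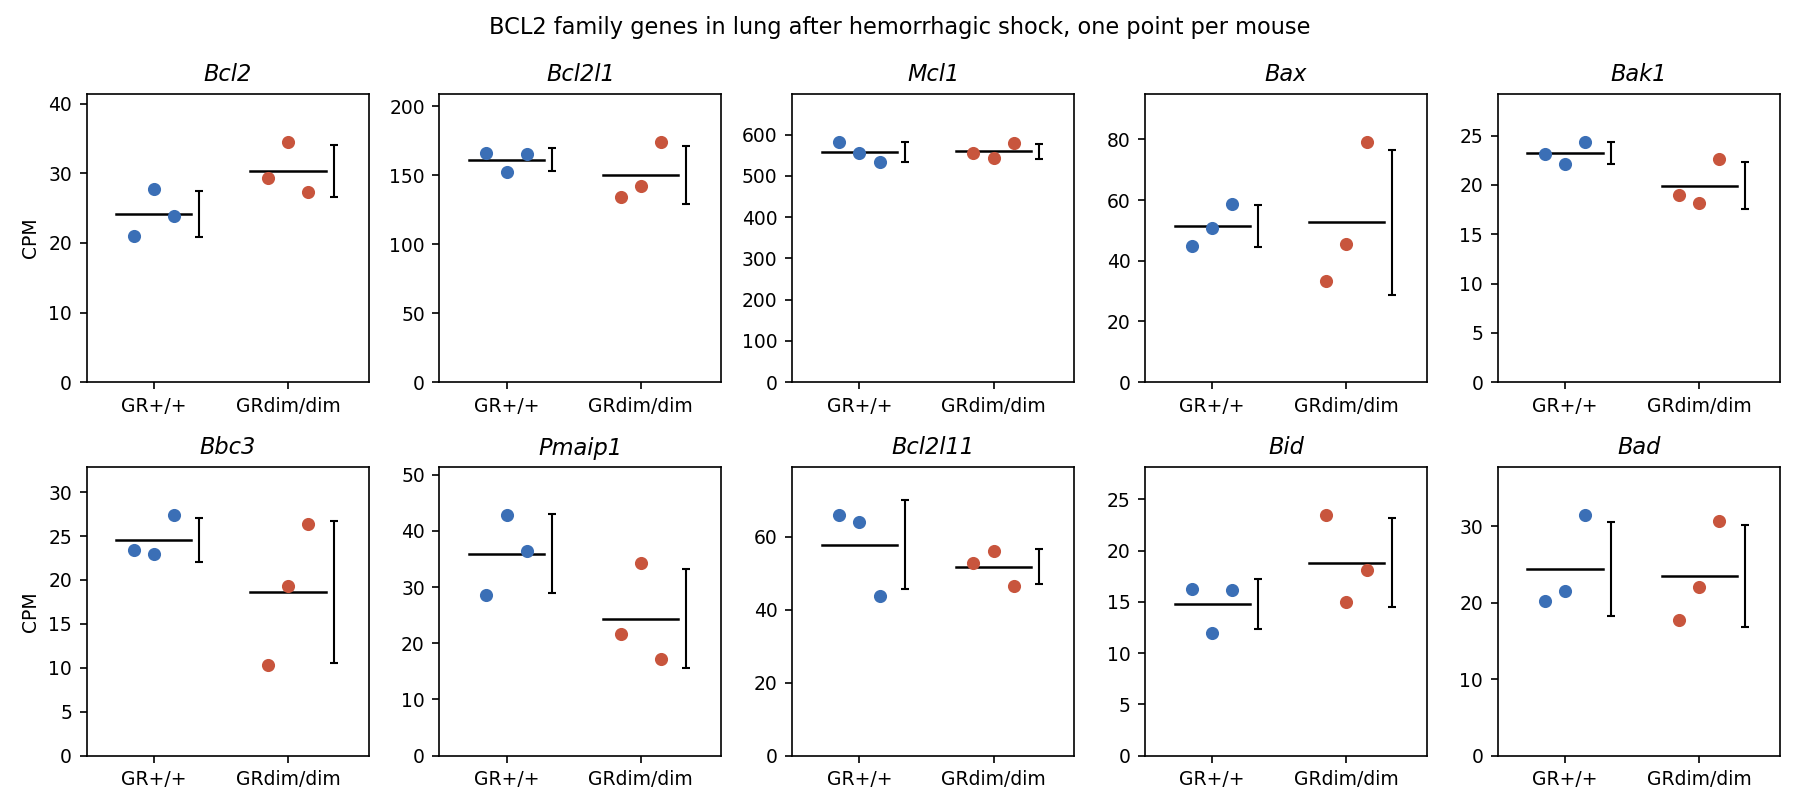
CPM (vertical axes, from 0) of the 10 members in GR+/+ and GRdim/dim lungs, 1 point per mouse in the order of replicates 1, 2 and 3, with the group mean (line) and SD (bar). The points of the genotypes overlap in each of the 10 panels, and the GRdim/dim points of *Bax* spread from 33.2 to 79.3 CPM.

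The anti-apoptotic members were led by *Mcl1*, which encodes a short-lived guardian that many cells need without pause (ENSMUSG00000038612, chromosome 3 of GRCm38 from 95658788 to 95663176, plus strand). Its levels were 583, 554 and 535 CPM in GR+/+ and 556, 543 and 580 CPM in GRdim/dim lungs. The values of both genotypes thus interleave within a narrow band. The resulting log2 fold change was 0.0055 (SE 0.17, BH-adjusted *p* = 0.996 in edgeR), and its 95% confidence interval reached from 0.773-fold to 1.30-fold. *Mcl1* had the smallest coefficient of variation of the 10 members in each genotype, with 4.36% in GR+/+ and 3.37% in GRdim/dim lungs.

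*Bcl2l1*, the gene of BCL-XL (ENSMUSG00000007659, chromosome 2 from 152780668 to 152831728, minus strand), had 166, 152 and 166 CPM in GR+/+ and 135, 142 and 174 CPM in GRdim/dim lungs. The GRdim/dim lungs held both the lowest and the highest value. Its log2 fold change was -0.10 (SE 0.17, BH-adjusted *p* = 0.918 in edgeR), with an interval from 0.723-fold to 1.202-fold. It was -0.22 without GRdim/dim replicate 3, -0.062 without GRdim/dim replicate 2 and -0.020 without GRdim/dim replicate 1. *Bcl2*, the founding member of the family and a survival factor of lymphocytes (ENSMUSG00000057329, chromosome 1 from 106538178 to 106714274, minus strand), had 21.0, 27.7 and 23.8 CPM in GR+/+ and 29.3, 34.6 and 27.3 CPM in GRdim/dim lungs. Only GRdim/dim replicate 3 lay below the highest GR+/+ lung. The log2 fold change of *Bcl2* was 0.33 (SE 0.19, unadjusted *p* = 0.117, BH-adjusted *p* = 0.651 in edgeR), with an interval from 0.934-fold to 1.69-fold. The part of the higher B, T and NK cell markers in the *Bcl2* values was not tested.

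Neither effector passed the test, and *Bax* varied widely among GRdim/dim lungs. *Bax* (ENSMUSG00000003873, chromosome 7 from 45461697 to 45466898, minus strand) had 45.0, 50.8 and 58.9 CPM in GR+/+ and 33.2, 45.4 and 79.3 CPM in GRdim/dim lungs. The lowest and the highest of the 6 lungs were both GRdim/dim, and the coefficient of variation was 45.3% in GRdim/dim against 13.5% in GR+/+ lungs, a difference that was not tested. The log2 fold change of *Bax* was 0.028 (SE 0.28, BH-adjusted *p* = 0.986 in edgeR), with an interval from 0.659-fold to 1.58-fold. It was -0.39 without GRdim/dim replicate 3 and 0.28 without GRdim/dim replicate 1. Exons of *Gm45808* on the same strand cover 192 bases or 12.2% of the exons of *Bax*, and *Gm45808* had 0 counts in every library. How reads in this stretch were counted is not known, so the level of *Bax* may be affected. *Bak1* (ENSMUSG00000057789, chromosome 17 from 27019810 to 27029009, minus strand), the gene of BAK, had 23.1, 22.1 and 24.4 CPM in GR+/+ and 19.0, 18.2 and 22.7 CPM in GRdim/dim lungs. Of these, GRdim/dim replicate 3 alone reached into the GR+/+ range. Its log2 fold change was -0.22 (SE 0.19, BH-adjusted *p* = 0.787 in edgeR), with an interval from 0.640-fold to 1.15-fold. Exons of *Ggnbp1* on the opposite strand cover 437 bases or 18.2% of *Bak1*, and reads of the pair cannot be told apart if strand was not used in counting.

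**Figure D2:**
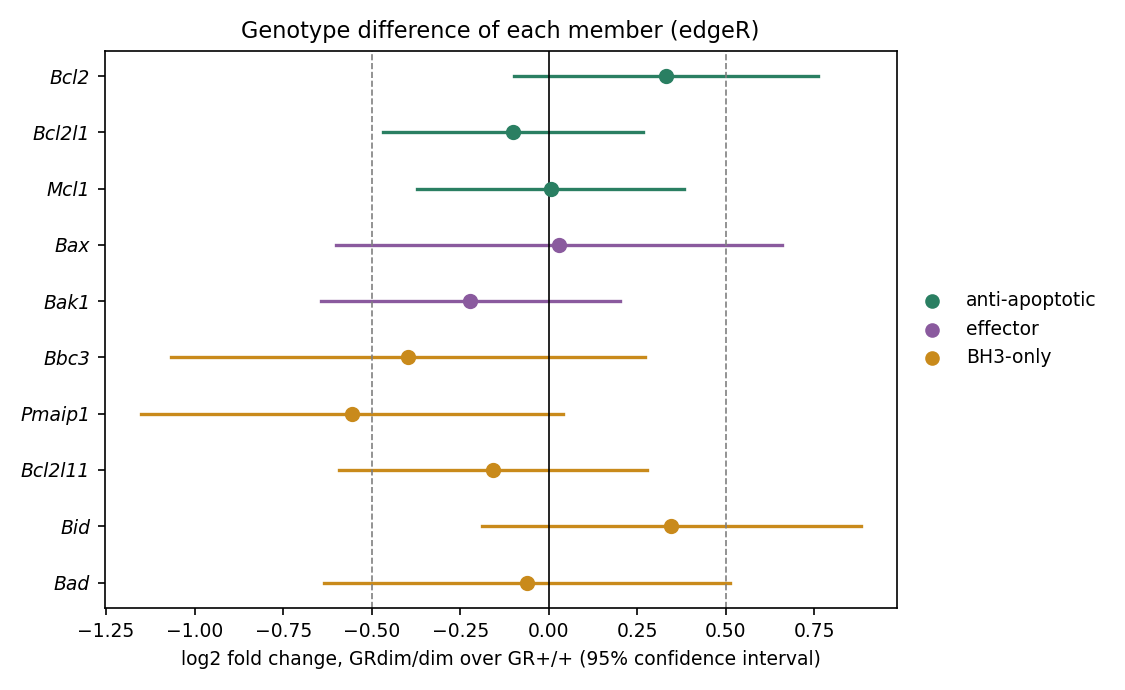
Log2 fold change of each member in GRdim/dim over GR+/+ lungs (points) with its 95% confidence interval from edgeR (lines), coloured by role, with dashed lines at the threshold of 0.5 in either direction. Every interval crosses 0, from the narrow one of *Bcl2l1* to the wide ones of *Bbc3* and *Bax*.

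Among the BH3-only genes, 4 of 5 had a log2 fold change below 0, beside 8129 of the 16568 genes tested. None of the 5 passed the test, and *Bad*, at -0.060, was near 0. *Pmaip1*, the gene of NOXA, which binds MCL1 (ENSMUSG00000024521, chromosome 18 from 66458604 to 66465550, plus strand), had 28.6, 42.8 and 36.5 CPM in GR+/+ and 21.6, 34.4 and 17.2 CPM in GRdim/dim lungs. GRdim/dim replicates 1 and 3 lay below every GR+/+ lung, and replicate 2 lay among them. By sex there was no overlap, with 28.6, 21.6 and 17.2 CPM in males and 42.8, 36.5 and 34.4 CPM in females of both genotypes. The share of all genes without overlap by sex is not given here, so this is not read as a sex difference of *Pmaip1*. The log2 fold change of -0.56 was the largest in size among the members (SE 0.27, unadjusted *p* = 0.0642, BH-adjusted *p* = 0.558 in edgeR), with an interval from 0.450-fold to 1.03-fold. The unadjusted *p*-value from DESeq2 was 0.0494 and the adjusted one 0.494. Without GRdim/dim replicate 2, the only female of that genotype, the log2 fold change was -0.89 (adjusted *p* = 0.332 from edgeR). Without GRdim/dim replicate 3, as with a covariate for sex-linked expression, it was -0.36.

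*Bbc3*, the gene of PUMA, a target of p53 that binds all anti-apoptotic members (ENSMUSG00000002083, chromosome 7 from 16308393 to 16318205, plus strand), had 23.4, 22.9 and 27.4 CPM in GR+/+ and 10.3, 19.3 and 26.4 CPM in GRdim/dim lungs. GRdim/dim replicate 1 was the lowest of the 6 lungs, at 191 counts, replicate 2 was next, and replicate 3 lay inside the GR+/+ range. In GRdim/dim over GR+/+ lungs it had a log2 fold change of -0.40 (SE 0.30, BH-adjusted *p* = 0.754 in edgeR), with an interval from 0.477-fold to 1.21-fold. Without GRdim/dim replicate 1 it was -0.10, and without GRdim/dim replicate 3 it was -0.73. *Bcl2l11*, the gene of BIM, which removes lymphocytes that lack growth factors (ENSMUSG00000027381, chromosome 2 from 128126038 to 128162547, plus strand), had 65.9, 63.9 and 43.7 CPM in GR+/+ and 52.7, 56.1 and 46.6 CPM in GRdim/dim lungs. All GRdim/dim values fell within the GR+/+ range. Its log2 fold change was -0.16 (SE 0.20, BH-adjusted *p* = 0.873 in edgeR), with an interval from 0.663-fold to 1.21-fold. It ran from -0.33 without GR+/+ replicate 3 to -0.049 without GR+/+ replicate 1, and was -0.074 without GR+/+ replicate 2 and -0.086 without GRdim/dim replicate 3.

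Promoter windows of 300 bases, from 250 bases before to 50 bases after an annotated start, were searched for 9 of the 10 members (RefSeq, GRCm38.p6), all but *Pmaip1*, which gave 15 windows, some of them overlapping. The element AGAACA of steroid receptors, searched on both strands, was in 0 of the 15 windows, against 18.97% of the 32851 windows of all genes. The FOXO element GTAAACA, also searched on both strands, was in 2 of the 15 windows, against 3.65% of all windows. These 2 windows belong to *Bcl2l11* and *Bbc3*, both known targets of FOXO3, and are shown for that reason on their plus strand with the element in capitals.
Bcl2l11, chr2:128125788-128126087: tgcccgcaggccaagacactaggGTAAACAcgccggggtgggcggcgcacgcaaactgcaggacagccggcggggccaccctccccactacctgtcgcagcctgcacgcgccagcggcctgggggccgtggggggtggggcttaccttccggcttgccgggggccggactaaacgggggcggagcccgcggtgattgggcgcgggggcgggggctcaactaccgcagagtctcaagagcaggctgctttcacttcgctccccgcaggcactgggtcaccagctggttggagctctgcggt
Bbc3, chr7:16310011-16310310: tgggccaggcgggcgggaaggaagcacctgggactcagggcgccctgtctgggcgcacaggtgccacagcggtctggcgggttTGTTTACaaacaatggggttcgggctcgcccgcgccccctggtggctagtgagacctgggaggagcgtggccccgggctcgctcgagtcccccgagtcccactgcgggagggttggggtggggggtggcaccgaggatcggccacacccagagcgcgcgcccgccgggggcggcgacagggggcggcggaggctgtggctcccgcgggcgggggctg
The element begins 227 bases before the start in *Bcl2l11* and, in the reverse orientation, 167 bases before the start in *Bbc3*. The 15 windows had a median GC content of 65.7%, against 52.7% over all windows. A match of letters is a description of the sequence, and binding of a factor was not measured.

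*Bid*, whose product carries the signal of death receptors to mitochondria after cleavage by caspase-8 (ENSMUSG00000004446, chromosome 6 from 120891930 to 120916853, minus strand), had 16.3, 11.9 and 16.2 CPM in GR+/+ and 23.5, 14.95 and 18.1 CPM in GRdim/dim lungs. GRdim/dim replicates 1 and 3 lay above every GR+/+ lung and replicate 2 lay inside their range. By sex, the males (16.25, 23.5 and 18.1 CPM) lay above the females (11.9, 16.17 and 14.95 CPM), though narrowly. Without the share of all genes that separate by sex, this is not read as a sex difference of *Bid*. With a log2 fold change of 0.35 (SE 0.24, BH-adjusted *p* = 0.720 in edgeR) and an interval from 0.878-fold to 1.84-fold, *Bid* had the highest fold change of the members in this fit. It was 0.16 without GRdim/dim replicate 1, 0.22 without GR+/+ replicate 2 and 0.21 with a covariate for sex-linked expression, and *Bcl2* was higher than *Bid* in all 3 of these fits. *Bcl2l13* on the opposite strand covers 628 bases or 17.7% of the exons of *Bid* and had 480 to 1268 counts, more than the 199 to 509 counts of *Bid* itself. *Bad*, whose product is switched off by growth factor kinases (ENSMUSG00000024959, chromosome 19 from 6941861 to 6951898, plus strand), had 20.2, 21.6 and 31.4 CPM in GR+/+ and 17.7, 22.02 and 30.7 CPM in GRdim/dim lungs. Each genotype held a lung near 31 CPM, and the log2 fold change was -0.060 (SE 0.26, BH-adjusted *p* = 0.972 in edgeR), with an interval from 0.644-fold to 1.43-fold. Exons of *Gpr137* on the opposite strand cover 524 bases or 20.5% of the exons of *Bad*. *Gpr137* had 396 to 902 counts, beside 328 to 990 counts of *Bad* itself.

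Spread among mice was unequal across the family. The median coefficient of variation over the 10 members was 13.7% in GR+/+ and 18.4% in GRdim/dim lungs. The same values over all genes tested are not given here, so this is not read as a trait of the members. GRdim/dim replicate 1 had the lowest value of the 6 lungs for 4 members (*Bcl2l1*, *Bax*, *Bbc3* and *Bad*) and the highest for *Bid*. GRdim/dim replicate 3 had the highest value for *Bax* and *Bcl2l1* and the lowest for *Pmaip1*. The share of all genes for which each library was lowest or highest is not given here either, so these are descriptions only. Across the 6 libraries, log2 CPM of *Bax* and *Bad* had a Pearson correlation of 0.91, the highest of the 45 pairs, and that of *Bcl2* and *Bak1* was -0.84, the lowest. These correlations describe 6 libraries that all values share.

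Ratios within a library do not depend on scaling between libraries, and their values overlapped between genotypes. The log2 ratio of *Bax* to *Bcl2*, per kilobase of gene length, was 3.64, 3.41 and 3.84 in GR+/+ and 2.72, 2.93 and 4.08 in GRdim/dim lungs. GRdim/dim replicates 1 and 2 thus lay below all GR+/+ lungs and replicate 3 above them. That of *Bbc3* to *Bcl2l1* was -1.72, -1.62 and -1.49 in GR+/+ and -2.60, -1.77 and -1.61 in GRdim/dim lungs. That of *Bcl2l11* to *Mcl1* had a mean of -4.52 in GR+/+ and -4.67 in GRdim/dim lungs. The summed 7 effector and BH3-only genes over the summed 3 anti-apoptotic genes gave a log2 ratio per kilobase of -1.15 ± 0.185 (SD, n = 3) in GR+/+ and -1.29 ± 0.303 (SD, n = 3) in GRdim/dim lungs, and the single values overlapped. *Mcl1*, at a mean of 163 CPM per kilobase, made up most of the anti-apoptotic sum, and *Bax*, at 33.1, was the largest term of the other. These ratios are described without a test.

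Per kilobase of gene length, *Mcl1* was the most abundant member with 163 ± 5.70 CPM per kilobase (SD, n = 6). *Bcl2l1* and *Bax* followed with 34.01 ± 3.38 and 33.1 ± 9.99 CPM per kilobase (SD, n = 6 each), and their ranges overlapped, whereas neither overlapped with *Mcl1* or with *Bad* below them. *Bad*, *Pmaip1*, *Bbc3*, *Bak1*, *Bcl2l11*, *Bid* and *Bcl2* formed a row of falling levels from 11.9 ± 2.86 to 2.98 ± 0.508 CPM per kilobase (SD, n = 6 each), in which every neighbouring pair overlapped in range. *Mcl1* was thus 54.8 times as abundant per kilobase as *Bcl2*, the lowest of the 10. With the annotated union of exons in place of the length given with the counts, a comparison added after the data were seen, *Bad* moved below *Pmaip1* and *Bbc3*, to 9.36 CPM per kilobase against 11.05 and 10.2, and the others kept their order. By either length, *Bcl2* has the longest gene model of the members with 9157 bases.

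**Figure D3:**
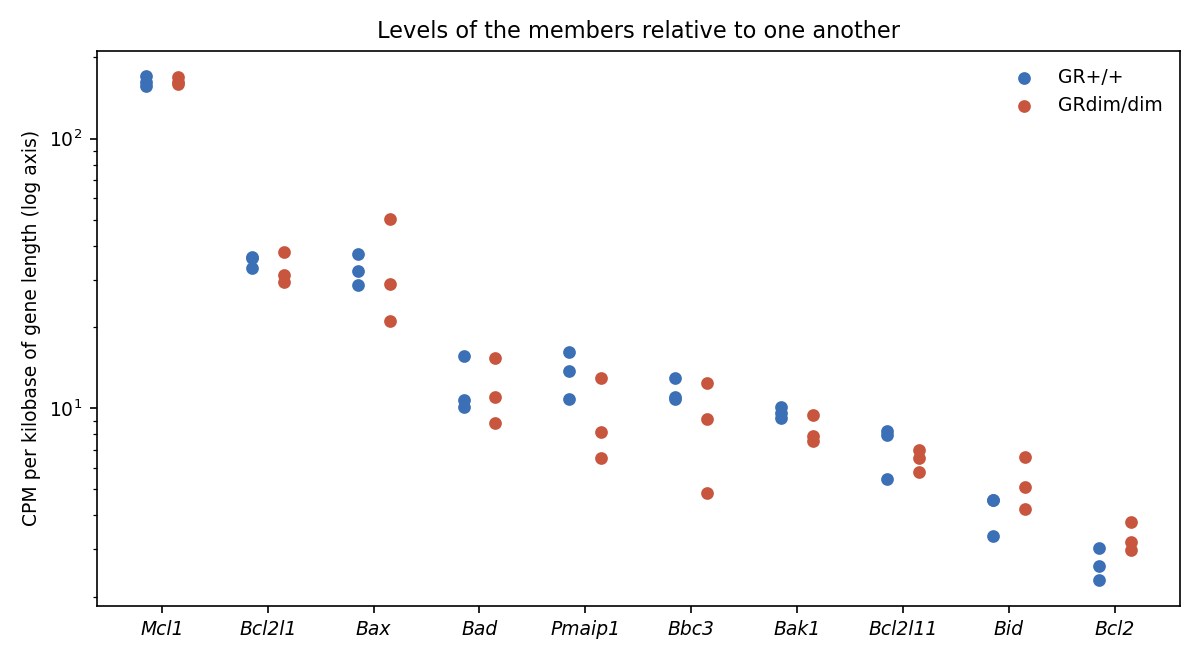
CPM per kilobase of gene length (log axis) of the 10 members in order of their mean, 1 point per mouse, with GR+/+ and GRdim/dim lungs in different colours. *Mcl1* stands above all others, *Bcl2l1* and *Bax* share a level near 33 to 34 CPM per kilobase, and the remaining 7 form a continuous row down to *Bcl2*.

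The other genes of the pathway were followed in 4 lists with 65 genes, of which 62 were tested in edgeR. None was a DEG in edgeR. Before adjustment, 3 had *p* under 0.05 and were higher and 2 were lower in GRdim/dim lungs, which is 8.06% of the 62 against 9.6% of all genes. The libraries did not overlap for 8 of the 62 or 12.9%, against 14.8% of all genes. By list this was 0% of other BCL2 family, 5.26% of caspase activation and 13.3% of p53 pathway genes, and 31.2% of the regulators. The median log2 fold change of the 62 was -0.017, beside 0.0064 for all genes. DESeq2 called 1 of the 62 (*Pim1*), and 1.7% of all genes it tested. The 8 genes without overlap were the 5 described below and *Vdac3*, *Tmbim6* and *Ei24*, with log2 fold changes of 0.23, 0.29 and -0.12. The last 3 fall outside the rule for named genes and were named after their values had been seen.

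Of 15 other BCL2 family genes, 12 were tested and none had an unadjusted *p*-value under 0.05, against 9.6% of all genes. *Bcl2l2*, the gene of the anti-apoptotic BCL-W, came nearest, with 110 ± 13.0 CPM in GR+/+ and 86.3 ± 10.6 CPM in GRdim/dim lungs (SD, n = 3 each) and a log2 fold change of -0.35 (SE 0.17, BH-adjusted *p* = 0.550 in edgeR). It was followed by the BH3-only genes *Bik* (at a log2 fold change of -0.41) and *Bmf* (-0.18) and by the anti-apoptotic *Bcl2a1a* (0.35). *Bcl2a1a*, *Bcl2a1b* and *Bcl2a1d* share 79.6% to 89.1% of their transcript windows of 31 bases with other genes, mostly with each other, so their counts are uncertain. *Bcl2l10*, *Hrk* and *Bcl2l15* had at most 30 counts in any library and were left out of the edgeR test by its filter. DESeq2 gave *Hrk* an adjusted *p*-value of 0.619 and none to the other two.

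Of 19 genes that act after the release of cytochrome c, all were tested, 2 were higher at an unadjusted *p*-value under 0.05 and none was lower. These 2 are 10.5% of the list, against 9.6% of all genes. *Birc5* (survivin, which also serves in cell division) had 1.97, 2.94 and 1.81 CPM in GR+/+ and 2.80, 4.69 and 4.46 CPM in GRdim/dim lungs, a log2 fold change of 0.84 (SE 0.36, BH-adjusted *p* = 0.492 in edgeR). *Birc2* had 61.6, 70.6 and 63.3 CPM in GR+/+ and 81.4, 92.3 and 75.6 CPM in GRdim/dim lungs, without overlap, and a log2 fold change of 0.35 (SE 0.16, BH-adjusted *p* = 0.520 in edgeR). *Apaf1*, the scaffold of the apoptosome, had a log2 fold change of 0.18 and *Birc6* one of -0.19, both with unadjusted *p*-values over 0.05.

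Of 15 genes of the p53 pathway, 1 was lower with *p* under 0.05 before adjustment and none was higher. This is 6.67% of the list, against 9.6% of all genes. *Trp53inp1*, a p53 target that promotes cell death, had 152, 142 and 149 CPM in GR+/+ and 122, 122 and 104 CPM in GRdim/dim lungs. Every GRdim/dim lung lay below every GR+/+ lung. Its log2 fold change was -0.35 (SE 0.15, BH-adjusted *p* = 0.5003 in edgeR). *Perp*, *Sesn1* and *Mdm4* followed with log2 fold changes of -0.45, -0.30 and 0.19.

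Of 16 regulators of BCL2 family proteins, 1 was higher and 1 lower with *p* under 0.05 before adjustment, together 12.5% of the list against 9.6% of all genes. *Pim1*, a kinase that phosphorylates and inactivates BAD, had 87.0, 90.8 and 74.1 CPM in GR+/+ and 118, 149.9 and 156 CPM in GRdim/dim lungs. Every GRdim/dim lung lay above every GR+/+ lung. The log2 fold change of *Pim1* was 0.75 (SE 0.17, unadjusted *p* = 0.00137, BH-adjusted *p* = 0.175 in edgeR), so it was not a DEG there, while DESeq2 called it (adjusted *p* = 0.0286). Over 13 alternative fits its log2 fold change stayed between 0.67 and 0.87 and its adjusted *p*-value between 0.0180 and 0.396, and 2 of them called it. *Foxo3*, a transcription factor that binds the FOXO element shown above, had 160, 129 and 132 CPM in GR+/+ and 98.3, 111 and 81.05 CPM in GRdim/dim lungs, without overlap. Its log2 fold change was -0.53 (SE 0.18, unadjusted *p* = 0.0124, BH-adjusted *p* = 0.366 in edgeR, 0.262 from DESeq2). *Bag1*, whose product binds BCL2, had 158, 173 and 202 CPM in GR+/+ and 204, 228 and 249.7 CPM in GRdim/dim lungs, again without overlap, with a log2 fold change of 0.36 (SE 0.17, BH-adjusted *p* = 0.557 in edgeR). *Huwe1*, a ubiquitin ligase that marks MCL1 for breakdown, had a log2 fold change of -0.36 (SE 0.22, BH-adjusted *p* = 0.663 in edgeR).

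**Figure D4:**
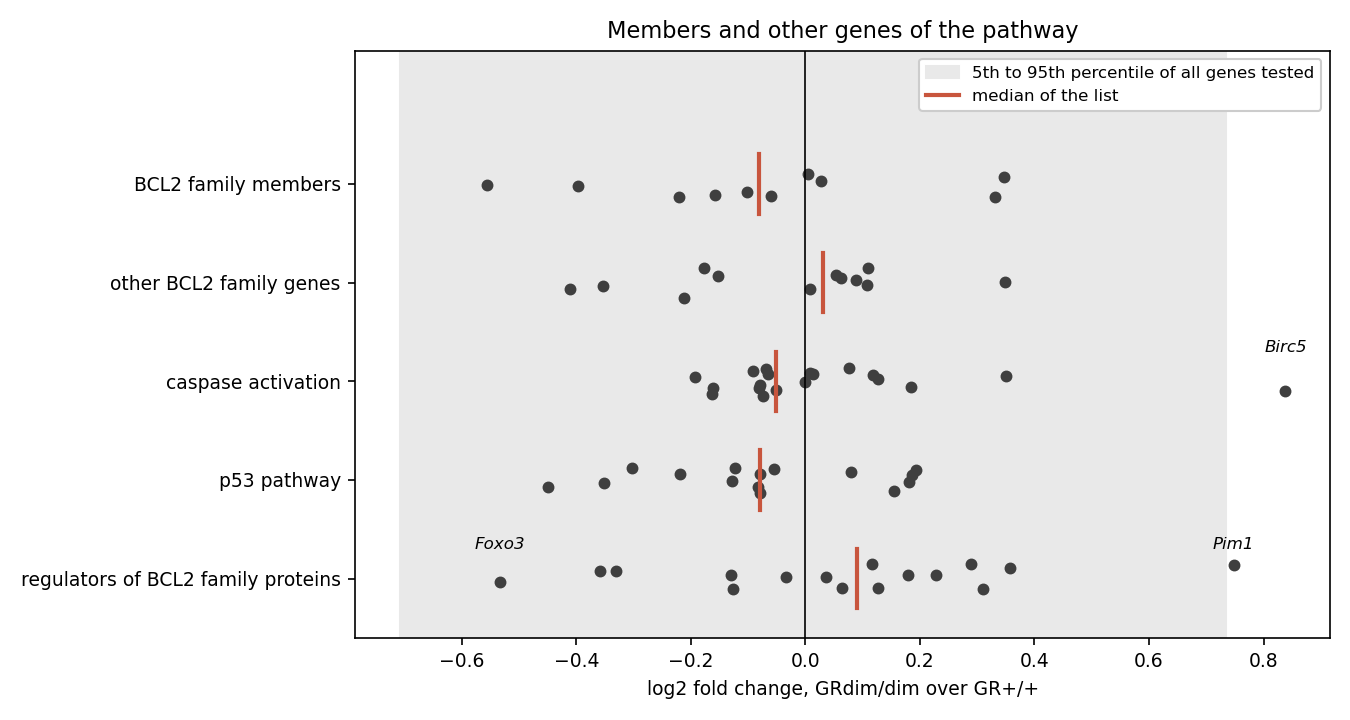
Log2 fold change in GRdim/dim over GR+/+ lungs of each tested gene in 5 lists (points, spread vertically only for legibility), with the median of each list (line) and the range from the 5th to the 95th percentile of all genes tested (grey, -0.71 to 0.74). All 10 members lie inside the grey range, and *Pim1* and *Birc5* lie outside it.

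**Figure D5:**
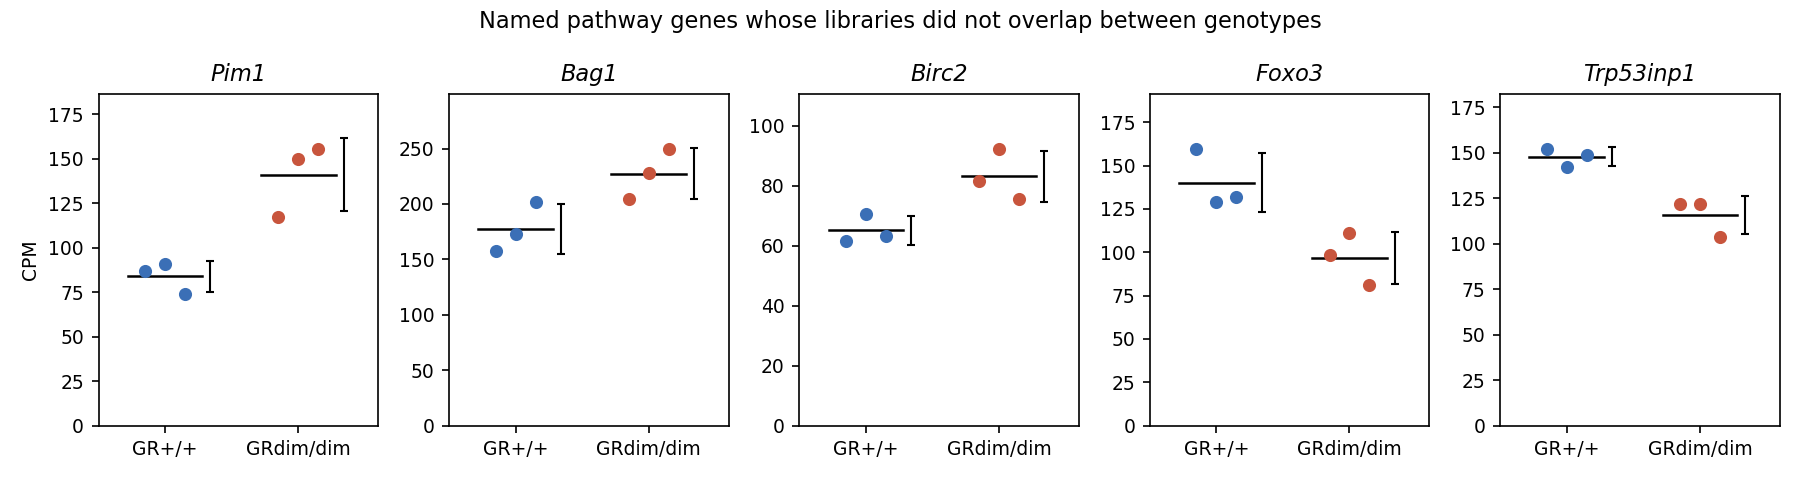
CPM (vertical axes, from 0) of 5 of the 8 pathway genes without overlap between genotypes (8 of 62 or 12.9%, against 14.8% of all genes), those that the rule for named genes picked, 1 point per mouse in the order of replicates 1, 2 and 3, with mean (line) and SD (bar). *Pim1*, *Bag1* and *Birc2* are higher and *Foxo3* and *Trp53inp1* lower in all 3 GRdim/dim lungs, and edgeR called none of the 5.

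Genes with the pattern most like 2 of the members were sought by Pearson correlation of log2 CPM over the 6 libraries among all genes tested. For *Pmaip1*, the member with the smallest *p*-value among those below 0, these were *Erg*, *Hpcal4* and *Hoxb3os*, with correlations of 0.999, 0.998 and 0.992. For *Bcl2*, the member with the smallest *p*-value among those above 0, they were *Cd300lg*, *Klra17* and *Rnase6*, with correlations of 0.990, 0.988 and 0.983. With 6 libraries, 45 genes had a correlation above 0.95 with *Pmaip1* and 51 with *Bcl2*.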

How the data were processed

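Lung RNA of 3 GR+/+ and 3 GRdim/dim mice after HS was sequenced by a commercial provider, 1 library per mouse. The table the authors deposited holds raw counts of reads for each gene, not normalized. The submitters' processing notes name mm10 and DESeq2. The library depth was 15687734 to 32082940 counts. Aligner, counting tool and use of strand are not given in the sources used here. Groups and replicate numbers come from the sample titles. The deposited gene length was used only for levels per kilobase, and it was the union of exons in GENCODE M21 for 8 of the 10 members (all but *Pmaip1* and *Bad*).

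Counts were analysed in R 4.3.3 with edgeR 4.0.16 (filterByExpr, TMM, robust glmQLFit, glmQLFTest) and Benjamini-Hochberg adjustment over 16568 genes. Confidence intervals (95%) are from the same fit, and log2 CPM had a prior count of 2. DESeq2 1.42.0 was an alternative. The others were RLE scaling, no filter, at least 10 counts in every library, a block for replicate numbers, sex-linked expression as covariate, no fold threshold, leaving out each library, and, chosen after seeing the data, libraries drawn down to the smallest total. Replicates differed by more than sampling noise (chi-square per gene of 19.2 to 62.9, where noise gives about 1).

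Members and lists were chosen with earlier results of these data known. The genes named are the members, DEGs of the lists and up to 4 genes per list with the smallest *p*-values, and the 3 genes most correlated with the leading member in each direction. The value of 1 gene of the lists is not reported here.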

Additional observations from a re-analysis of the deposited data

How the results depend on the processing

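No member was a DEG under any of the alternatives. None of the lists of other BCL2 family, caspase activation and p53 pathway genes held a DEG under any of them. Before adjustment, 1 member had *p* under 0.05 with DESeq2, without a filter on low counts and with the replicate block. The same held without GR+/+ replicate 1, GRdim/dim replicate 2 or GRdim/dim replicate 3, and the other refits gave 0. The shares of all genes in the edgeR fits among these are not given here. In the list of regulators, 1 gene (*Pim1*) was called with DESeq2 and 1 without a filter on low counts, against 0 in the reported fit. Over all genes tested, the 28 DEGs became 274 with DESeq2 and 522 without a filter on low counts, and 4 (without GR+/+ replicate 2) to 22 (without GRdim/dim replicate 1) with a library left out. Without GR+/+ replicate 1 or 3 or GRdim/dim replicate 3 they were 12, 17 and 14. The cause was not tested.

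Members near 0 changed sign without passing the test. The log2 fold change of *Mcl1* was -0.024 with the covariate for sex-linked expression, and with a library left out it ran from -0.024 (without GR+/+ replicate 3) to 0.043 (without GR+/+ replicate 1), with -0.020 without GRdim/dim replicate 3. That of *Bax* was -0.054 with the replicate block, and with a library left out it ran from -0.39 (without GRdim/dim replicate 3) to 0.28 (without GRdim/dim replicate 1), with -0.055 without GR+/+ replicate 1. That of *Bad* was 0.00088 with the covariate for sex-linked expression, and with a library left out it ran from -0.30 (without GRdim/dim replicate 3) to 0.17 (without GR+/+ replicate 3), with 0.11 without GRdim/dim replicate 1. The other 7 members kept their direction under all 13 alternatives that refitted the fold change.

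With the replicate block, 34 genes and 0 members were DEGs. Deviations of same-numbered libraries from their group means correlated at 0.22, 0.04 and -0.05, so the numbers were not taken to pair the mice. Depth was 191 counts or more for every member in every library. With 3 mice per genotype, the intervals of *Pmaip1*, *Bbc3* and *Bid* reached 0.450-fold, 0.477-fold and 1.84-fold, so that the absence of a call does not show equal levels. Nothing in the counts tells of protein cleavage, phosphorylation or localization.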
